A study of Mus musculus with 2 samples.

Results

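Ccl24/Fn1 macrophages were cells of injured mouse carotid arteries in which at least 3 of the 5 genes Ccl24, Fn1, Mmp19, Tppp3 and Slc7a2 had a UMI (unique molecular identifier, 1 counted transcript), and more of them than of any other gene panel. The cells were chosen by detected genes, in steps. A barcode needed 300 genes or more and no more than 15% of UMIs from mitochondria, at least 2 of the 4 macrophage genes Csf1r, Adgre1, Cd68 and Fcgr1, and no UMI of the dendritic cell gene Cd209a. The other 4 panels were Fabp5, Hmox1, Lgmn, F7 and Ednrb, then the interferon-induced genes Cxcl10, Rsad2, Ifit2, Cmpk2 and Irf7, then Chil3, Vcan, Ccr2, Ifitm6 and Dmkn, and last Lyve1, Cd163, C1qa, Folr2 and Cbr2. The rule kept 703 cells of 15613 barcodes, 356 from the control and 347 from the knockout pool. Because measured genes chose the cells, levels of the panel genes and all differences between these cells and other macrophages are descriptions.

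The series held 1 library per genotype, both from carotid arteries taken 18 h after a temporary ligation had injured the endothelium. Control mice were CDH5 Cre- Cx43fl/fl and knockout mice CDH5 Cre+ Cx43fl/fl, so both carried floxed alleles of the connexin 43 gene Gja1. The Cdh5 promoter directs the inducible Cre recombinase to endothelium, and recombination in macrophages was not measured. Carotids of 1 condition were digested briefly with liberase, combined up to 5 at a time, freed of red cells by lysis and frozen before sequencing. The labels give no mouse numbers, sex, age or inducing agent, and no uninjured artery was analysed here. With 1 library per group no test between genotypes was possible, and each value compares these 2 libraries. All 95% intervals below cover counting error only.

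Macrophages in an injured artery come from circulating monocytes and from cells that lived in the wall before the injury. They clear dead cells, release chemokines that draw in further leukocytes, and lay down or cut a provisional matrix in which fibronectin is a main protein. Ccl24 (eotaxin-2) is a chemokine that acts on Ccr3 and is known as a product of macrophages exposed to interleukin-4. Arginase 1 (Arg1) degrades arginine, and osteopontin (Spp1) is a secreted phosphoprotein of macrophages in wounds and plaques.

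The libraries held 7298 control and 8315 knockout barcodes with 48862850 and 54392831 UMIs, and 17 barcode sequences occurred in both, none of them in a Ccl24/Fn1 macrophage. The median Ccl24/Fn1 macrophage had 6887 UMIs and 2611.5 genes in control and 7060 UMIs and 2551 genes in knockout. Gja1 stood at 68.6 CPM (UMIs scaled to a total of 1e6) in control and 64.3 CPM in knockout members, a log2 ratio of -0.09 (-0.39 to 0.21). A 3′ tag outside the floxed part does not report recombination, and these are not endothelial cells.

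Of the 10 monocyte and macrophage markers, 4 (Csf1r, Adgre1, Cd68 and Fcgr1) were the genes that gated the cells, so their detection was set by the rule. Among the others, the lysozyme gene Lyz2 stood at 2870 CPM in control and 3450 CPM in knockout members, the integrin gene Itgam at 1280 and 1430 CPM and the efferocytosis receptor Mertk at 212 and 202 CPM. The word recruited could not be tested at 1 time point. All 10 markers of recruited monocytes were detected, with Ccr2 at 645 and 493 CPM. Of the 12 resident macrophage markers 10 were detected in control and 11 in knockout members, and Vsig4 was at 0 in both. T and NK cell markers summed to 2.44 and 0.355 CPM and B cell markers to 1.39 and 4.98 CPM.

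Stromal transcripts were present in a minority of the cells. Fibroblast markers summed to 1290 CPM in control and 1120 CPM in knockout members, against 450 and 532 CPM in the other gated macrophages. Smooth muscle markers summed to 132 and 345 CPM, endothelial markers to 213 and 86.7 CPM, neutrophil markers to 465 and 178 CPM with Ly6g at 0 in both, and haemoglobins to 400 and 43.0 CPM. Of control members 63, and of knockout members 52, had at least 3 fibroblast or 3 neutrophil markers or at least 2 smooth muscle, endothelial, T/NK, B or mast cell markers. These cells had medians of 10459 and 12816.5 UMIs, and 22 and 26 of them ranked among simulated doublets, against 24 of 293 and 27 of 295 of the rest. The rest, 293 cells of the control and 295 of the knockout library, are called marker-poor members here. This subset was defined after the data had been seen, and in it fibroblast markers summed to 89.9 and 90.5 CPM and smooth muscle markers to 19.3 and 27.6 CPM. The same markers were used to leave cells out, so these low sums are in part set by the filter. Levels below are those of marker-poor members unless all members are named.

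The panel genes and the 2 other markers separated the class unevenly from its neighbours. Fibronectin (Fn1, ENSMUSG00000026193, chr1:71585520-71653200, minus strand, GRCm38) stood at 10700 CPM in control and 10500 CPM in knockout members, against 7220 and 6470 CPM in Fabp5/Hmox1 macrophages and 1070 and 381 CPM in Lyve1/Cd163 macrophages. Ccl24 (ENSMUSG00000004814, chr5:135569937-135573049, minus strand) stood at 1900 and 2840 CPM, against 1050 and 1630 CPM in Fabp5/Hmox1 and 572 and 1410 CPM in Chil3/Vcan macrophages. Tppp3, which encodes a protein that promotes tubulin polymerization, stood at 589 and 594 CPM, and at no more than 281 CPM in any of the 3 neighbouring classes of either library. All 3 genes were thus highest in the members.

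Spp1 and Arg1, which the rule did not use, were shared with other macrophages. Spp1 stood at 10400 CPM in control and 10100 CPM in knockout members, but at 18900 and 20800 CPM in Fabp5/Hmox1 macrophages. Arg1 stood at 3590 and 3340 CPM in members and at 4010 and 4870 CPM in Fabp5/Hmox1 macrophages. Chil3/Vcan macrophages held less of each, with Spp1 at 4630 and 4370 CPM and Arg1 at 936 and 1460 CPM. Of the 6 marker genes, Spp1 and Arg1 thus did not set the members apart from Fabp5/Hmox1 macrophages.

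**Figure D1:**
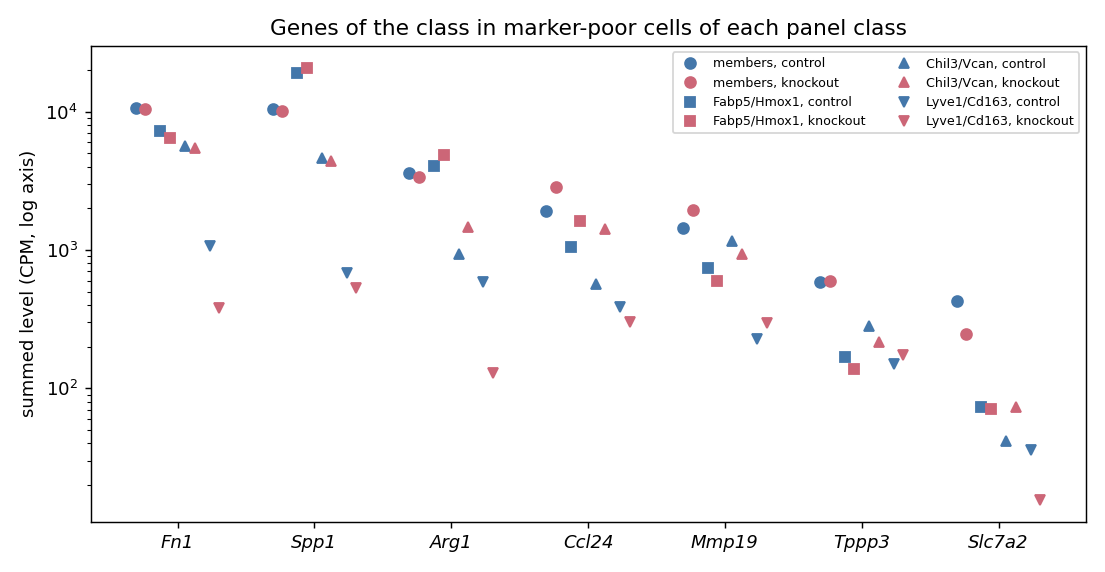
Summed level (CPM, log axis) of the 7 panel and marker genes in marker-poor cells of 4 panel classes, control in blue and knockout in red, 1 point per class and library. Fn1, Ccl24, Mmp19, Tppp3 and Slc7a2 were highest in the members of each library, while Spp1 and Arg1 were higher in Fabp5/Hmox1 macrophages.

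The rule required panel genes, so how often Ccl24 and Fn1 were found in members is a description of the rule at work. After each cell was thinned to 2000 UMIs, Ccl24 was found in 68.9% of control and 72.1% of knockout members (84.3% and 87.1% without thinning), against 0.613% and 2.76% of cells with lymphocyte markers, whose median depths were 3882 and 3427 UMIs. Fn1 was found in 98.2% and 97.9% of thinned members against 13.5% and 10.1% of lymphocyte-marker cells. Spp1 was found in 77.7% and 75.9% against 21.5% and 16.6%, the highest background of these genes.

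The class was cut from a count of detected genes per cell, so its edge was set by the rule. Whether the cells form a separate type was not tested. Among all members, those with 3 panel genes numbered 44 (control) and 41 (knockout). They held Ccl24 at 218 and 882 CPM and Fn1 at 4000 and 6500 CPM. Just outside, 559 and 490 gated macrophages, not limited to marker-poor cells, had at least 3 panel genes but as many of another panel. Their Ccl24 stood at 1510 and 2000 CPM and their Fn1 at 8060 and 7260 CPM. With exactly 2 panel genes there were 329 and 511 gated macrophages, and in 10 and 8 of them this was more than of any other panel. Genes of other panels were found in members too: the median member of all members held Vcan at 847 CPM in control and 1010 CPM in knockout, Ccr2 at 562 and 336 CPM, Hmox1 at 198 and 157 CPM, Chil3 at 179 and 161 CPM, and Fabp5 at 0 in both.

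Members also differed among themselves by the panel they came nearest to next. The 80 control and 78 knockout members whose next panel was Fabp5/Hmox1 alone held Spp1 at 11400 and 11200 CPM, Arg1 at 4050 and 3880 CPM and the mannose receptor Mrc1 at 1820 and 1730 CPM. The 71 and 90 members whose next panel was Chil3/Vcan alone held Spp1 at 6680 and 8170 CPM, Arg1 at 2790 and 2430 CPM and Mrc1 at 1540 and 605 CPM. The monocyte gene Ly6c2 stood at 32.8 and 39.3 CPM in the first and 99.2 and 126 CPM in the second. The remaining 142 and 127 members, whose next panel was another one or shared, held Spp1 at 11600 and 10800 CPM and Arg1 at 3730 and 3620 CPM together with Ly6c2 at 95.6 and 123 CPM, so high Spp1 and Arg1 did not go with low Ly6c2 throughout. Across 283 control and 290 knockout cells, Mrc1 and the tetraspanin Cd9 had Spearman correlations of -0.51 and -0.59, and of -0.33 and -0.48 after thinning to equal depth. Cd9 and Fn1, a panel gene, gave 0.39 and 0.44, and 0.35 and 0.37 after thinning. These cells share their library and its depth, so the correlations are descriptions.

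Beyond the panels, Kcnn4, Bhlhe40, Cav2 and Cd9 were among the genes that were higher in marker-poor members than in the other marker-poor gated macrophages of both libraries. Of 8229 genes compared, 76 (0.924%) were at least 1.5-fold higher and 174 (2.11%) at least 1.5-fold lower in both libraries. The calcium-activated potassium channel Kcnn4 gave log2 ratios of 1.12 in control and 1.34 in knockout, the transcriptional repressor Bhlhe40 0.91 and 1.35, the caveolin gene Cav2 0.90 and 1.27, the receptor phosphatase Ptprs 0.85 and 0.88, and Rgcc 0.79 and 1.08. Cd9 stood at 733 and 949 CPM against 429 and 467 CPM. On the low side were the cytokine Il10, with log2 ratios of -3.64 and -2.52, Slamf7 with -2.55 and -2.61, and Gas6, a bridge in the uptake of dead cells, with -2.63 and -2.12. The rule moves every gene of these cells, so none of this is a test.

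Over all members, 348 of 9332 genes (3.73%) were at least 1.5-fold higher and 196 (2.10%) lower than in the other gated macrophages of both libraries. The highest by rank were stromal genes, among them Igfbp5, Mgp, Fbn1, Mfap5, Eln and Loxl1, and their UMIs came mostly from the members with markers of other cell types. Among marker-poor members Mgp stood at 16.4 and 16.7 CPM, against 16.6 and 16.2 CPM in the others.

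Set against 3 neighbouring classes, the members held fewer lysosome transcripts than Fabp5/Hmox1 macrophages, fewer monocyte transcripts than Chil3/Vcan macrophages and fewer resident-cell transcripts than Lyve1/Cd163 macrophages. The marker lists overlap the rule: the recruited-monocyte list holds Ccr2 of the Chil3/Vcan panel, and the resident list holds Cd163, Folr2, Cbr2 and Lyve1 of the Lyve1/Cd163 panel. Against Fabp5/Hmox1 macrophages, 184 of 5809 genes (3.17%) were higher and 178 (3.06%) lower in both libraries. Of 29 lysosome genes 15 were lower and none higher, with list medians of -0.61 and -0.77. Cathepsin B (Ctsb) stood at 3880 and 2920 CPM in members against 8010 and 7100 CPM. Of 20 lipid handling genes 8 were lower and 2 higher, and of 8 coagulation and fibrinolysis genes 4 were higher and none lower. MHC class II genes had medians of 0.52 and 0.95, with 2 of 8 higher.

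Against Chil3/Vcan macrophages, 180 of 5578 genes (3.23%) were higher and 175 (3.14%) lower. Of 10 markers of recruited monocytes 7 were lower, Ccr2 among them, with medians of -1.23 and -1.21, while 5 of 7 resident markers were higher. Of these 5, Cd163, Folr2 and Cbr2 are panel genes and Mrc1 and Pf4 are not. Ly6c2 stood at 80.7 and 103 CPM against 395 and 425 CPM, and Plac8 at 358 and 411 CPM against 1200 and 1360 CPM. Platelet factor 4 (Pf4), a chemokine of platelets that macrophages also make, stood at 4240 and 5190 CPM against 1430 and 1960 CPM. Of 30 interferon-response genes 6 were lower and none higher.

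Against the Lyve1/Cd163 class, which carries the genes of artery-resident macrophages, 664 of 4153 genes (16.0%) were higher and 478 (11.5%) lower. All 9 recruited-monocyte markers compared were higher, with medians of 1.61 and 3.10, and 8 of 9 resident markers were lower, with medians of -2.99 and -3.14. The rule used 4 of these 8, since members must have fewer of that panel's genes, so the count and medians are in part set by it. Of the other 4, F13a1 gave -1.94 and -2.02, Mrc1 -1.63 and -2.31, Selenop -2.58 and -3.20 and Gas6 -6.26 and -5.39. Of 23 glycolysis and hypoxia genes 19 were higher, with medians of 1.56 and 2.07, and Hif1a stood at 1400 and 1540 CPM against 324 and 184 CPM. Immediate-early and stress genes, which digestion can induce, were lower in 10 of 17.

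**Figure D2:**
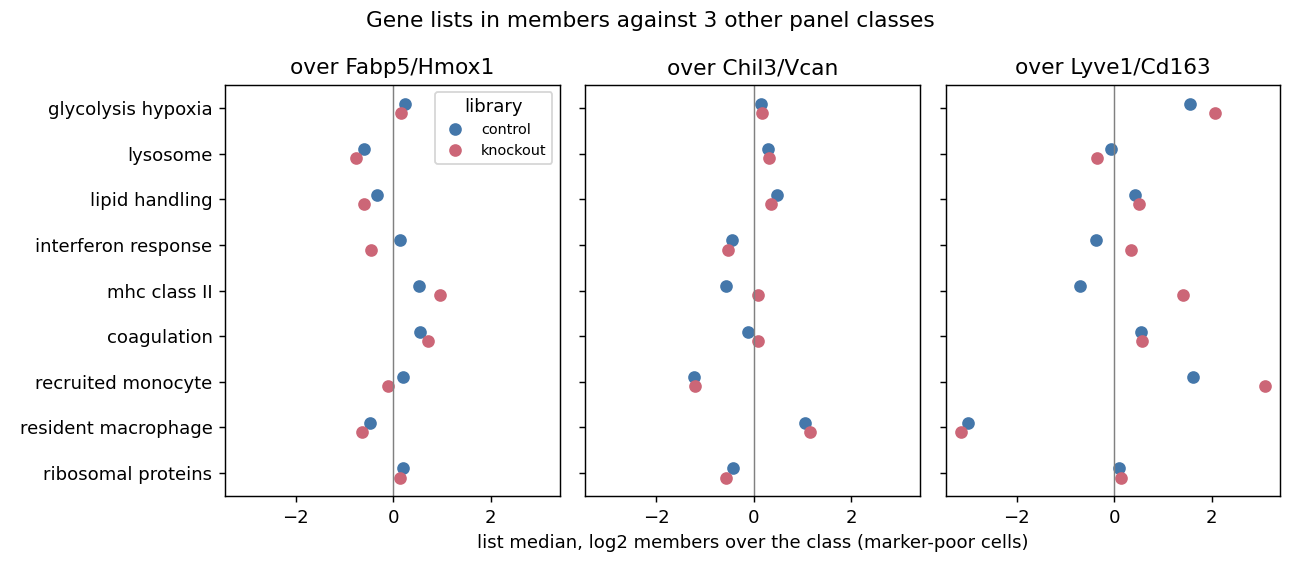
Median log2 ratio of each gene list in marker-poor members over marker-poor cells of 3 other panel classes, control in blue and knockout in red. Lysosome genes lay at -0.61 and -0.77 against the Fabp5/Hmox1 class, recruited-monocyte markers at -1.23 and -1.21 against the Chil3/Vcan class, and resident markers, which include genes of that class's panel, at -2.99 and -3.14 against the Lyve1/Cd163 class.

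Between genotypes the share of the class differed little. Members made up 16.6% (15.1 to 18.3, exact Clopper-Pearson) of 2139 gated control macrophages and 14.5% (13.1 to 16.0) of 2393 gated knockout macrophages, a log2 ratio of -0.20 (-0.39 to -0.00). Of the 6739 and 7712 kept cells they made up 5.28% and 4.50%, a log2 ratio of -0.23 (-0.44 to -0.02). The ratio among gated macrophages was 0.02 in cells with Xist UMIs alone, -0.63 in cells with Y-linked UMIs alone and 0.04 with Fn1 left out of the panel. In the same libraries the interferon panel took 18 control and 159 knockout cells (log2 ratio 2.98), and Fabp5/Hmox1 macrophages 497 and 400 (-0.48). A cell that gains interferon genes can leave the members under this rule, and without the interferon panel members numbered 363 and 385.

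**Figure D3:**
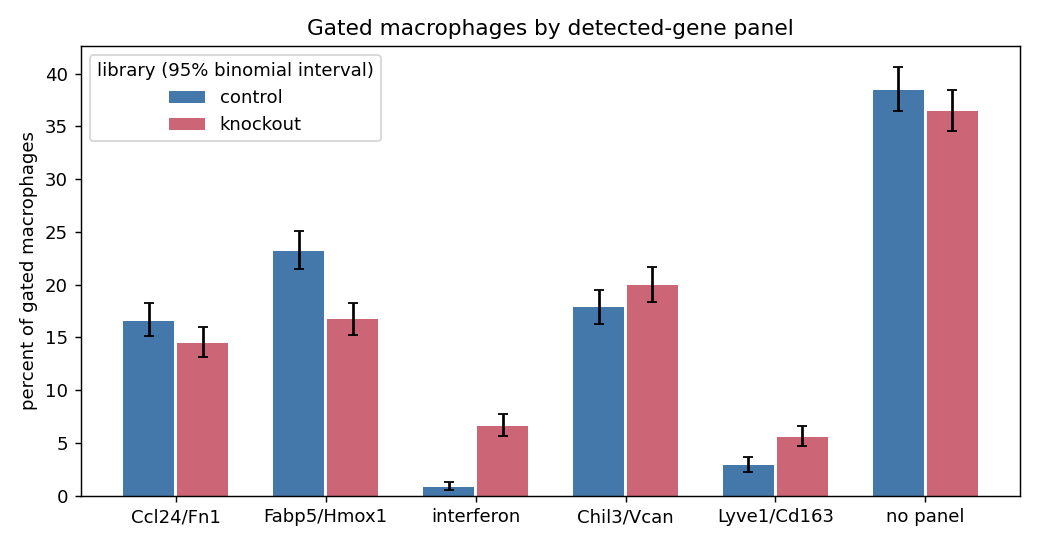
Percent of gated macrophages assigned to each panel in the control (blue) and knockout (red) library, with 95% exact binomial intervals of counting error. The Ccl24/Fn1 bars stand at 16.6% and 14.5%, and the interferon panel bars, at 0.842% and 6.64%, are the farthest apart in ratio.

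Levels of the class's own genes were close between libraries for Fn1, Spp1, Arg1 and Tppp3 and apart for Ccl24, Mmp19 and Slc7a2. Fn1 had a log2 ratio of knockout over control of -0.02, Spp1 of -0.03 and Arg1 of -0.10. Ccl24 went from 1900 CPM in control to 2840 CPM in knockout members, a log2 ratio of 0.58 (0.52 to 0.64) that lay just under the 1.5-fold line used for calls, and from 1060 to 1440 CPM in the other gated macrophages. Over all members its ratio was 0.71. Mmp19, a metalloproteinase, went from 1440 to 1940 CPM (0.43). Slc7a2, a cationic amino acid transporter that carries arginine, was lower in the knockout library, at 425 and 249 CPM, a log2 ratio of -0.77 (-0.93 to -0.61). Slc7a2 was found in 40.6% of control and 31.7% of knockout members after thinning, against 1.84% and 0.461% of lymphocyte-marker cells. Its ratio lay past 1.5-fold in all 17 alternative settings of all members. Slc7a2 is a panel gene, so the rule set its level and detection in part in each setting, and these values are descriptions. In gated macrophages with at least 3 panel genes but as many of another panel, Slc7a2 stood at 182 and 134 CPM. That group was not limited to marker-poor cells. None of 12 arginine and polyamine genes compared, Arg1 among them, lay past 1.5-fold in either direction.

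A small share of genes lay past 1.5-fold between the libraries. Of 6795 genes with at least 100 UMIs in all members, 114 (1.68%) were at least 1.5-fold higher and 304 (4.47%) at least 1.5-fold lower in the knockout library. In marker-poor members the counts were 93 (1.65%) and 163 (2.89%) of 5639, with a median log2 ratio of -0.06 over all genes in both. Over all members the widest separations fell on genes of other cells. Acta2 and Tagln of smooth muscle were higher in knockout members, with log2 ratios of 1.51 and 1.38, and Prg4, which serosal macrophages also express, and Lum of fibroblasts lower, with -2.21 and -1.67. Neutrophil S100a8 and S100a9 were lower too, with -1.41 and -1.59. In marker-poor members S100a8 and S100a9 gave 0.20 and 0.16, Lum -0.02 and Acta2 0.61 on 29 and 45 UMIs. These genes are among the markers by which cells were left out of that subset, so its filter set these values in part.

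Some inflammatory cytokine and chemokine genes were higher in knockout members. Of 17 classical inflammatory genes 7 were at least 1.5-fold higher and none lower, against 1.65% and 2.89% of all genes, and the list median was 0.48. Over all members 5 of 18 were higher, against 1.68% of all genes, and none lower. The list median over all members was 0.38, and 0.08 with Fn1 left out of the panel. Interleukin-1 beta (Il1b), the inflammasome-processed cytokine, went from 607 to 1080 CPM, a log2 ratio of 0.83 (0.73 to 0.93). It was found in 41.0% of control and 53.4% of knockout members after thinning, against 10.4% and 4.15% of lymphocyte-marker cells. The ratio of Il1b lay past 1.5-fold in all 17 alternative settings.

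The antagonist of the same receptor, Il1rn, was higher as well, at 306 and 503 CPM (0.72). Tnf went from 27.1 to 43.3 CPM (0.68), Il18 from 16.4 to 36.7 CPM (1.16) and Acod1, which makes itaconate, from 19.8 to 31.9 CPM (0.69). Not every inflammatory gene lay past 1.5-fold: Ptgs2 stood at 148 and 153 CPM, Cxcl1 at 130 and 111 CPM, and Nfkbiz at 293 and 256 CPM. Over all members the Ptgs2 ratio was -0.89 in cells with Xist UMIs alone and 2.57 in cells with Y-linked UMIs alone.

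Among 15 chemokine ligand genes 4 were higher, Ccl8, Ccl3, Cxcl2 and Ccl4, and none lower, with a list median of 0.31. These counts stand against 1.65% and 2.89% of all genes. This list overlaps the inflammatory list, and the 7 inflammatory and 4 chemokine genes that were higher are 8 different genes. Cxcl2, which draws neutrophils through Cxcr2, went from 1870 to 3230 CPM, a log2 ratio of 0.79 (0.74 to 0.85), and from 1670 to 2860 CPM in the other gated macrophages. With Fn1 left out of the panel, which left 80 and 92 cells, the Cxcl2 ratio was 0.10. In those cells the chemokine list median was -0.21, against 0.45 over all members. Ccl8 went from 30.0 to 60.9 CPM (1.02), with 66.1% of its control and 79.7% of its knockout UMIs in 5 cells. Ccl3 went from 212 to 396 CPM (0.90) and from 262 to 308 CPM in the other gated macrophages. Over all members the Ccl3 ratio was 0.64, past 1.5-fold in 12 of 17 alternative settings, and 0.07 with the rule on thinned cells. Ccl4, a chemokine related to Ccl3, went from 457 to 732 CPM (0.68), and over all members its ratio was 0.57, under the 1.5-fold line. Ccl2, the main ligand of Ccr2, went from 3490 to 4870 CPM (0.48). Ccl9 at 5480 and 4720 CPM and Ccl6 at 8980 and 8580 CPM ran slightly the other way. In the other gated macrophages the medians of the same genes were 0.32 for the inflammatory and 0.56 for the chemokine list, and the difference between the cell groups was not tested.

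To show sequence beside the values, the 250 bases before the RefSeq starts of the higher inflammatory and chemokine genes were searched on both strands. The motif sought was a form of the one that NF-kappaB binds, GGG followed by any 2 bases and TTTCC. Of the 8 inflammatory or chemokine genes that were at least 1.5-fold higher, 7 had a promoter in the table (Ccl4 had none), and 1 of them, Cxcl2, held the motif. It held 2 matches, shown in capitals, at 97 and 78 bases before the start. In windows of 250 bases the motif was found in 464 of 32851 promoters (1.41%). The 200 bases nearest the Cxcl2 start are printed, at chr5:90903699-90903898 on the plus strand of GRCm38.p6.
Cxcl2: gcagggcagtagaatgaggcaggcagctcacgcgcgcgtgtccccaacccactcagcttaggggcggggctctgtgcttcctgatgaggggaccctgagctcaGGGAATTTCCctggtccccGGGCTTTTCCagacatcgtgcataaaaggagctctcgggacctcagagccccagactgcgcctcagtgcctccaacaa
A match is a description of letters and not a binding site.

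Interferon-response genes outside the rule's panel stayed mostly within 1.5-fold in members. Of 29 such genes 1, Isg15, was at least 1.5-fold higher and none lower, against 1.65% and 2.89% of all genes, with a list median of 0.29. The same genes had a median of 0.96 in the other gated macrophages, and the difference between the 2 groups of cells was not tested. Over all members 3 of 31 were higher, against 1.68% of all genes, and none lower. Isg15, a ubiquitin-like modifier, went from 60.0 to 126 CPM, a log2 ratio of 1.07 (0.76 to 1.39), and from 78.1 to 389 CPM in the other gated macrophages. Thinned to equal depth, Isg15 was found in 11.7% and 16.6% of members, against 1.23% and 5.53% of lymphocyte-marker cells. The rule sets this contrast in part, since cells rich in its interferon panel are not members. The list median over all members was 0.24, and 0.77 when the interferon panel was not used. Of the 5 genes of that panel, whose levels in members the rule limits, 3 were compared in marker-poor members and 2 were higher. Their median log2 ratio was 1.35, against 2.57 in the other gated macrophages.

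The 200 bases before the Isg15 start, at chr4:156200819-156201018 on the minus strand of GRCm38.p6 (RefSeq), held 3 overlapping matches to a core of the interferon-stimulated response element, GAAA followed by any 2 bases and GAAA. They begin 78, 72 and 66 bases before the start and are shown in capitals. The motif, searched on both strands, was found in 978 of 32851 promoters (2.98%) in windows of 250 bases.
Isg15: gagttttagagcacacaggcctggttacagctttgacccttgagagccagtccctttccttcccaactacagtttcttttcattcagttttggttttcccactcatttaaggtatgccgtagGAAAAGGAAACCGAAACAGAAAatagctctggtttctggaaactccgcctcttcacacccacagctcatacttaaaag
The sequence is shown because Isg15 was the 1 gene of the interferon list past 1.5-fold in marker-poor members.

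Among growth factor genes Vegfa and Csf1 were higher and Nrg1 lower in knockout members. Vegfa, which drives vessel growth and leak, went from 103 CPM in control to 233 CPM in knockout members, a log2 ratio of 1.17 (0.94 to 1.41), and from 108 to 148 CPM in the other gated macrophages. Vegfa was found in 17.7% of control and 29.0% of knockout members after thinning, against 0.613% and 2.76% of lymphocyte-marker cells, and its ratio lay past 1.5-fold in all 17 alternatives. The macrophage growth factor Csf1 went from 58.0 to 111 CPM (0.94), with 49.8 and 55.5 CPM in the others. Neuregulin 1 (Nrg1), a ligand of ErbB receptors, was lower, at 191 and 84.3 CPM (-1.18, -1.44 to -0.92), and at 181 and 110 CPM in the others. Of 10 growth factor genes compared 2 were higher and 1 lower, against 1.65% and 2.89% of all genes. Over all members 4 of 13 were higher (Vegfa, Csf1, Areg and Osm) and 2 lower (Nrg1 and Igf1), against 1.68% and 4.47%. Vegfa was the sole glycolysis and hypoxia gene of 27 past the line, and the list median was -0.04.

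Genes of alternative activation and lipid handling were past 1.5-fold in both directions. Of 13 alternative activation genes 3 were lower, Mrc1, Pparg and Retnla, and 2 higher, Il1rn and Mgl2, against 2.89% and 1.65% of all genes. Over all members 2 of 15 were lower, Retnla and Ear2, and the same 2 higher, against 4.47% and 1.68% of all genes. Mrc1 went from 1870 to 1210 CPM, a log2 ratio of -0.63 (-0.70 to -0.55), while in the other gated macrophages it stood at 1990 and 1960 CPM. Over all members Mrc1 had a ratio of -0.45, under the 1.5-fold line. Pparg, the nuclear receptor of lipid-handling macrophages, went from 42.5 to 26.2 CPM (-0.70), and over all members its ratio was -0.42. Nr1h3, another nuclear receptor of lipid metabolism, gave -0.73 and over all members -0.36.

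Of 20 lipid handling genes 4 were lower, Lpl, Scd2, Nr1h3 and Pparg, and Olr1 was higher, against 2.89% and 1.65% of all genes. Over all members 2 of 23 were lower, Lpl and Scd2, and 2 higher, Olr1 and Fabp4, against 4.47% and 1.68% of all genes. Lipoprotein lipase (Lpl) went from 842 to 493 CPM (-0.77, -0.88 to -0.66) and from 542 to 239 CPM in the other gated macrophages, so it was lower in both groups of cells. Cd36 at 1530 and 1580 CPM and Apoe at 626 and 595 CPM were close. All 27 lysosome genes lay within 1.5-fold, with a list median of -0.22 in members and -0.19 in the other gated macrophages.

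Matrix and clot genes held several of the widest ratios, and these rested on few cells. Serpinb2, an inhibitor of plasminogen activators, went from 16.0 to 87.1 CPM (2.45), but 5 cells held 48.5% of its control and 73.2% of its knockout UMIs, and over all members its ratio was -0.09. Mmp12, the macrophage elastase, went from 49.8 to 149 CPM (1.58) with all UMIs in 5 cells of each library. Of its 323 UMIs in all knockout members, 1 cell held 281. Thrombospondin 1 (Thbs1), a matricellular protein, went from 3840 to 5690 CPM (0.57), close to the line. None of 13 matricellular genes and none of 13 fibronectin and matrix receptor genes lay past 1.5-fold, among them Cd44 at 3930 and 4380 CPM and Itga5 at 158 and 163 CPM.

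Other genes with the widest intervals from 0 were led by Gatm, the first enzyme of creatine synthesis, which fell from 68.2 to 10.0 CPM (-2.77). Over all members the Gatm ratio was -1.49. Gatm was found in 8.83% of control and 0.690% of knockout members after thinning. Pla1a, a phospholipase of phosphatidylserine, went from 19.3 to 53.8 CPM (1.48) and Rnf150 from 136 to 72.9 CPM (-0.90), both past 1.5-fold in each alternative that gave a value. Hist1h1c, Clec4a1, Arhgap15 and Trerf1 were lower, with ratios from -1.21 to -0.80, and Fbxo32 higher (1.27). Over all members they gave, in that order, -0.75, -0.66, -0.70 and -0.60, and Fbxo32 gave 0.62. Pmepa1 had a ratio of 1.22 in marker-poor and 0.30 in all members, and Pde4d of -0.96 and -0.51. MHC class II genes had a median of 0.40 in members and -0.08 in the other gated macrophages, with H2-Ab1 at 178 and 272 CPM (0.61) and H2-Eb1 at 146 and 221 CPM (0.60).

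**Figure D4:**
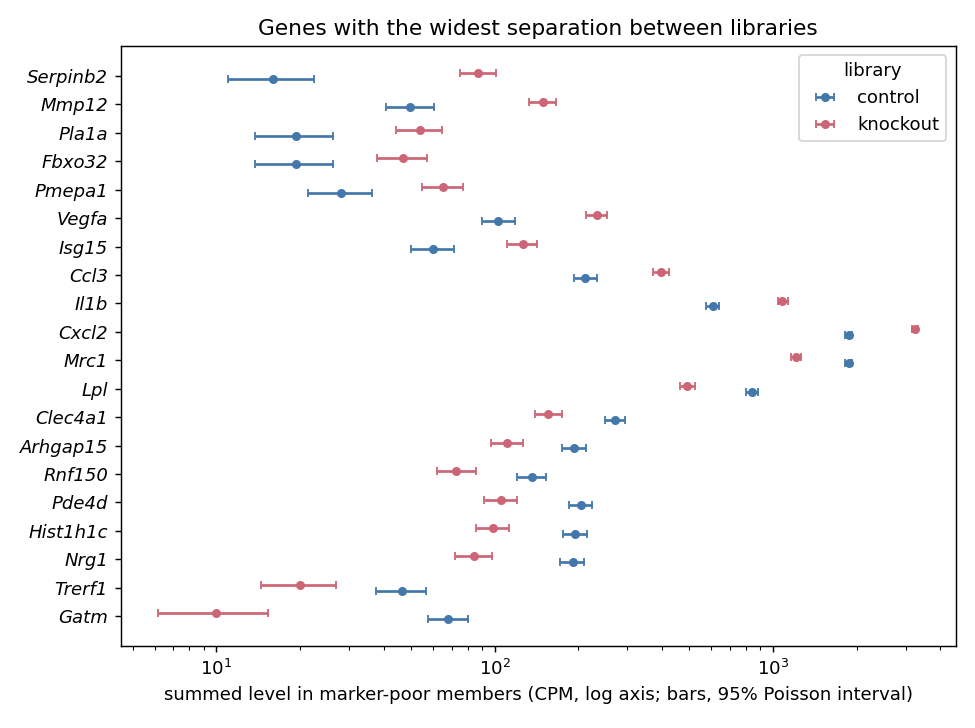
Summed level (CPM, log axis) of the 10 genes higher and the 10 lower in knockout marker-poor members whose ratio intervals lay farthest from 0, control in blue and knockout in red, bars giving 95% Poisson intervals. Points run from Serpinb2 (16.0 and 87.1 CPM) at the top to Gatm (68.2 and 10.0 CPM) at the bottom, and Mmp12 and Serpinb2 rested on few cells.

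The pools held cells of both sexes, and the members' mix was alike. Of control members 219 had Xist UMIs alone and 66 UMIs of Ddx3y, Eif2s3y, Kdm5d or Uty alone, and of knockout members 203 and 66, so cells with Xist were 76.8% and 75.5% of those of 1 kind. In the other gated macrophages they were 78.6% and 66.9%. The numbers of animals behind each kind are not known, so sex and animal cannot be told apart.

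Within both libraries, marker-poor members with Xist held more of several class genes than members with Y-linked transcripts. Spp1 stood at 12800 CPM in control and 11200 CPM in knockout cells with Xist, against 3470 and 4300 CPM in cells with Y-linked UMIs. Arg1 stood at 4220 and 3880 CPM against 1910 and 2410 CPM, Ccl24 at 2350 and 2830 CPM against 827 and 1550 CPM, and Slc7a2 at 528 and 272 CPM against 230 and 111 CPM. Tppp3 ran the other way, at 510 and 525 CPM against 676 and 673 CPM.

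The difference between libraries also depended on the kind of cell for some lists. The interferon list median was 0.88 in 178 control and 177 knockout cells with Xist and -0.40 in 57 and 55 cells with Y-linked UMIs, on 21 and 9 genes. Isg15 went from 39.4 to 111 CPM in the first and from 99.9 to 117 CPM in the second. The inflammatory list median was 0.09 in cells with Xist and 0.77 in cells with Y-linked UMIs. As with the interferon list, these medians can rest on different genes. Cxcl2 (0.64 and 1.51), Il1b (0.74 and 0.91), Vegfa (0.89 and 1.33) and Slc7a2 (-0.96 and -1.05) kept their direction in both kinds. Mrc1 gave -0.80 and -0.05. None of these differences between kinds of cells was tested.

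**Figure D5:**
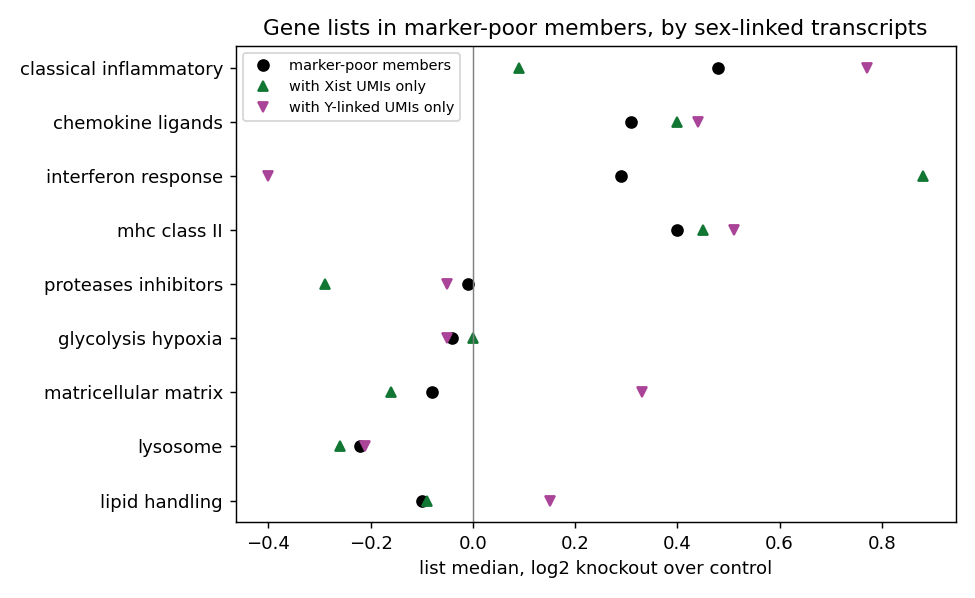
Median log2 ratio of knockout over control of 9 gene lists in marker-poor members (black circles), in those with Xist UMIs only (green) and in those with Y-linked UMIs only (purple). The interferon list stands at 0.88 in cells with Xist and -0.40 in cells with Y-linked UMIs, and the inflammatory list at 0.09 and 0.77. The green and purple medians of a list can rest on different genes.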

How the data were processed

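Single-cell 3′ RNA libraries of 1 control and 1 knockout pool were analysed. The deposited matrices hold UMI counts per gene and barcode, made with Cell Ranger 8.0.1 per the file headers, with STAR and mm10 named in the submitters' processing notes. They list 32285 genes and barcodes of at least 501 UMIs. How doublets were treated before deposit is not given in the sources used here. No column came from another series.

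Cells were kept at 300 or more genes and 15% or less mitochondrial UMIs, and members were chosen by the rule at the head of the results. Raw counts were summed over cells of a class per library and divided by the class total (CPM). Levels carry exact Poisson, ratios exact conditional binomial and shares exact Clopper-Pearson intervals, at 95%, with Katz intervals for ratios of shares. A library under 3 UMIs of a gene was set to 3 for ratios. Genes needed 100 UMIs in members of both libraries together and were called at 1.5-fold (0.58 on the log2 scale). For a count of 0 the one-sided 95% limit is about 3 UMIs, and the 2-sided Poisson interval reaches higher. Detection was compared after thinning each cell to 2000 UMIs. Doublets were ranked by simulated neighbours and removed in 1 alternative only. The code was tested on simulated data.

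Named genes, with mitochondrial, ribosomal, haemoglobin, sex-linked, unnamed and panel genes left out of rankings, were the 12 highest and 8 lowest against other gated macrophages, taking the library nearer 0, and the 10 per direction whose knockout to control interval lay farthest from 0. Up to 4 genes of most UMIs per list, and list genes past 1.5-fold, were named too. The members and lists were chosen with earlier results of these data known. The alternatives changed cell filters, panel threshold, ties, depth, doublets, cells with other markers, the Fn1 and interferon panels, scaling, cell weighting, free RNA, sex-linked transcripts and the UMI minimum. The marker-poor subset, its split by sex-linked transcripts, its comparison with other panels and the promoter windows were added after seeing the data. Figures were drawn with matplotlib 3.10.9, intervals computed with SciPy 1.17.1, tables with pandas 2.3.3 and NumPy 2.4.6, and doublets ranked with scikit-learn 1.9.0, all under Python 3.11.15. Gene positions are GENCODE annotation of GRCm38, and promoters are RefSeq. Some genes that the naming rule covers are not reported here.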

Additional observations from a re-analysis of the deposited data

Results flagged for a closer look

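In all members, 2 genes had knockout to control ratios past 1.5-fold in opposite directions between cells with only Xist and only Y-linked UMIs. Ratios that differed in sign at a smaller size were not flagged, and the difference was not tested. Mmp12 had a log2 ratio of -2.53 in cells with Xist and 6.50 in cells with Y-linked UMIs, with its UMIs in 5 marker-poor cells of each library. In all knockout members 1 cell held 281 of its 323 UMIs, so its ratios rest largely on single cells. Ptgs2, an inducible prostaglandin synthase, had a log2 ratio of -0.89 in cells with Xist and 2.57 in cells with Y-linked UMIs. In marker-poor members Ptgs2 gave -0.18 and 2.19, at 131 and 116 CPM in cells with Xist and 51.0 and 233 CPM in cells with Y-linked UMIs.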

How the results depend on the processing

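No paired analysis was possible because each group has 1 library. With 1 library per group no setting gives a test, sums of few UMIs limit genes of low level, and genes under 100 UMIs in a setting got no value. Every alternative setting was run. Filters of at least 500 genes and of at most 10% or 25% mitochondrial UMIs left the members at 356 and 347 cells and moved none of the 186 values beyond its 95% counting interval or, for a count of genes, 1.5-fold.

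The share of members among gated macrophages, knockout over control on the log2 scale (-0.20), was 0.04 with Fn1 not in the panel, 0.02 in cells with Xist and -0.63 in cells with Y-linked UMIs. Among kept cells (-0.23) it was 0.01, 0.06 and -0.77. Genes at least 1.5-fold higher in knockout members (114) numbered 256 with ties allowed, 180 without the interferon panel, 185 by mean single-cell CPM, and 533 and 33 at minimums of 20 and 400 UMIs. Genes lower (304) numbered 143 with the rule on thinned cells, 155 without cells of 2 or more other markers, 145 without Fn1, 158 in cells with Y-linked UMIs, 163 in marker-poor cells, and 1156 and 36 at 20 and 400 UMIs. The interferon list median (0.24) was 0.13 at 4 panel genes, 0.51 with ties, 0.18 without doublets, 0.37 without cells of other markers, -0.04 without Fn1, 0.77 without the interferon panel, 0.31 by median of ratios, 0.82 with Xist, -0.47 with Y-linked UMIs and 0.29 in marker-poor cells.

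Some gene ratios changed sign, and the cause was not tested. Knockout over control gave, without doublets, -0.36 for Acta2; on thinned cells 1.90 for Cytl1, 0.05 for Ifitm6, 1.75 for S100a8 and 1.88 for S100a9; without Fn1 4.36 for Cytl1; in cells with Y-linked UMIs -0.07 for Isg15; with Xist -2.53 for Mmp12; and in marker-poor cells 0.20 for S100a8 and 0.16 for S100a9.

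Members over other gated control macrophages, with Fn1 left out (80 cells), gave -1.78 for Adamts5, -2.58 for Cp, -0.87 for Cxcl5, -0.88 for Efna5, -2.41 for Eln, -0.75 for Fbn1, -1.16 for Igfbp5, -0.93 for Loxl1, -1.20 for Mfap5, -3.16 for Mgp, -1.96 for Mmp12, -1.88 for Pi15 and -2.38 for Ptx3. On thinned control cells they gave -2.41 for Cp, -0.20 for Cxcl5, -0.56 for Eln, -1.97 for Fbn1, -2.36 for Gfpt2 and -1.31 for Mgp. Other control values were -3.65 for Igfbp5 and -0.54 for Mmp12 at 4 panel genes, 0.52 for G0s2 at 2 panel genes, 0.35 for Csta2 and 0.46 for Retnlg with ties. Without cells of other markers they were -2.52 for Cp, -0.48 for Cxcl5 and -0.16 for Mmp12. Cp gave -0.31 without doublets, -0.48 by mean single-cell CPM and -2.33 in marker-poor cells, where Mgp gave -0.01. In the knockout library thinned cells gave 1.40 for Csta2, 0.31 for G0s2, -1.15 for Lyz1, -1.89 for Mmp12 and 0.75 for Retnlg. Ties gave 0.39 for Csta2, Fn1 left out -0.23 for Eln and -0.85 for Mmp12, and cells without other markers -0.10 for Cxcl5.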

Other observations

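The platelet marker list stood high in all members through 1 gene. Ppbp, a chemokine precursor of platelets, made up 2441 of 2452 platelet-list UMIs in control and 3454 of 3476 in knockout members, and 4 and 12 cells held at least 2 of the 4 platelet markers. In marker-poor members Ppbp stood at 1100 CPM in control and 1000 CPM in knockout, against 1170 and 1730 CPM in Fabp5/Hmox1 macrophages and 326 and 398 CPM in Chil3/Vcan macrophages.

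Some pairs of genes were correlated across single cells of the class in both libraries. Spearman correlations over 283 control and 290 knockout marker-poor cells, which share library and depth, were 0.46 and 0.44 for the panel gene Tppp3 with the actin-associated gene Pdlim1, and 0.29 in both libraries after thinning to equal depth. Arg1 with Spp1 gave 0.31 and 0.27 (0.32 and 0.23 thinned), and Cxcl2 with Il1b 0.28 and 0.32 (0.23 and 0.25 thinned).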
